A study of Mus musculus with 6 samples.

Results

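The 47 genes described here act in the DNA damage response and in DNA repair. They were taken by symbol from a given list, each symbol matched through its Ensembl identifier, out of 53465 genes in the count table. The list holds 10 checkpoint and damage signalling genes, 13 genes of homologous recombination, 5 of end joining, 3 of mismatch repair, 7 of base excision repair, 5 of nucleotide excision repair and 4 of crosslink repair or the RecQ helicase family. Of the 47, 44 had enough counts to be tested between the groups, among 11842 genes tested in all.

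The kinases ATM and ATR sense DNA breaks and stalled replication, and pass the signal to CHK2 and CHK1, which halt the cell cycle, and to the p53 family. Breaks are then repaired from an intact copy by homologous recombination or by direct joining of the ends, while damaged, mispaired or bulky bases are cut out by the base excision, mismatch and nucleotide excision pathways. A fully grown oocyte makes almost no new RNA, so the repair transcripts of a mature egg are a store from the growth phase, and TAp63, the p53 relative encoded by *Trp63*, is known in resting oocytes as the switch from CHK2 signalling to oocyte death.

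RNA was sequenced from 6 pools of M II oocytes (mature eggs arrested at the second meiotic metaphase) of aged female Kunming (KM) mice, an outbred stock, 9 to 10 months old. Each pool combined 15 oocytes from 3 mice after 16 h of in vitro maturation in M16 medium without cumulus cells. The 3 control pools were matured without quercetin, and the 3 quercetin pools with 10 µM quercetin, a plant flavonol with antioxidant activity that was dissolved in DMSO. Young oocytes were not part of the sequencing, so the comparison shows the difference with quercetin in aged oocytes and not that with age. The labels do not say whether pools were matured in separate cultures, so the p-values measure the spread between these pools, each of which is already an average over 15 oocytes. In such bulk samples, fewer oocytes carrying a transcript and less of it per oocyte cannot be told apart.

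The pools held 7880467 to 9938743 counts on genes. Of 12 oocyte markers, 11 were abundant and *Figla* was near the floor, with a summed level of 24366 to 29431 CPM (the standard depth-scaled unit, a gene's counts relative to the TMM-scaled total of its pool). The 14 cumulus and granulosa cell markers summed to 63.5 to 87.4 CPM, 73.5 ± 8.67 in control and 84.6 ± 3.78 in quercetin (SD, n = 3), nearly all of it *Cyp19a1*, while *Foxl2*, *Amh* and *Ptx3* were at 0 in every pool. The sum was higher in each quercetin pool than in each control pool, and its part in the results on the repair genes was not tested. Ovarian stroma markers summed to 1.20 to 3.36 CPM, with *Col1a1* and *Col1a2* at 0 throughout, and blood and immune markers to 2.68 to 3.60 CPM, with *Hbb-bs* and *Hba-a1* at 0. The pools did not separate by treatment. On the first principal component (33.0% of the variance) quercetin pools 1 and 2 lay at -34.4 and -28.5, quercetin pool 3 at 28.4, and the control pools at -3.52, 29.1 and 9.03. Results on the repair genes that rest on quercetin pool 3 are therefore given with and without it.

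Reads of all 47 genes were counted in every pool, and their levels spanned a wide range. *Atrip* and *Ercc1* fell under 3 counts, the floor used here for counting error, in at least 1 pool. Per kilobase of exon, *Chek1*, the kinase that carries the ATR signal, stood first at 287 ± 40.9 CPM/kb over the 6 pools. *Msh6*, a subunit of the sensor of base mismatches, followed at 67.2 ± 4.42 CPM/kb, and *Mdm2*, the ubiquitin ligase that removes p53, at 47.6 ± 6.33 CPM/kb. Next came *Rad50* (23.7 ± 9.08), *Trp53* (18.8 ± 2.45), *Brca2* (18.2 ± 2.59), *Lig4* (17.1 ± 4.72), *Xrcc4* (14.1 ± 2.89), *Blm* (13 ± 1.90) and *Wrn* (12.3 ± 1.58), all in CPM/kb. At the low end were *Prkdc*, *Xrcc3*, *Atm*, *Ercc2*, *Ercc1* and *Atrip*, at 0.473 down to 0.0583 CPM/kb. The ranges over the 6 pools overlapped for 42 of the 46 pairs of neighbours in this order. The steps without overlap came after *Chek1*, *Msh6*, *Mdm2* and *Msh3*, so elsewhere neighbours in the order did not differ beyond their ranges. Exon length was the merged length of all annotated exons of a gene, 23629 bases for *Atr*, so the order also depends on the annotation. Of the 47 genes, 9 share over 10% of their 31-base words, on either strand, with pseudogenes or other genes, among them *Trp53* (10.2%) and *Msh6* (10.8%). The highest shares were in *Apex1* (57.1%), *Ercc2* (34.1%) and *Lig3* (24.3%), whose exons overlap other genes.

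**Figure D1:**
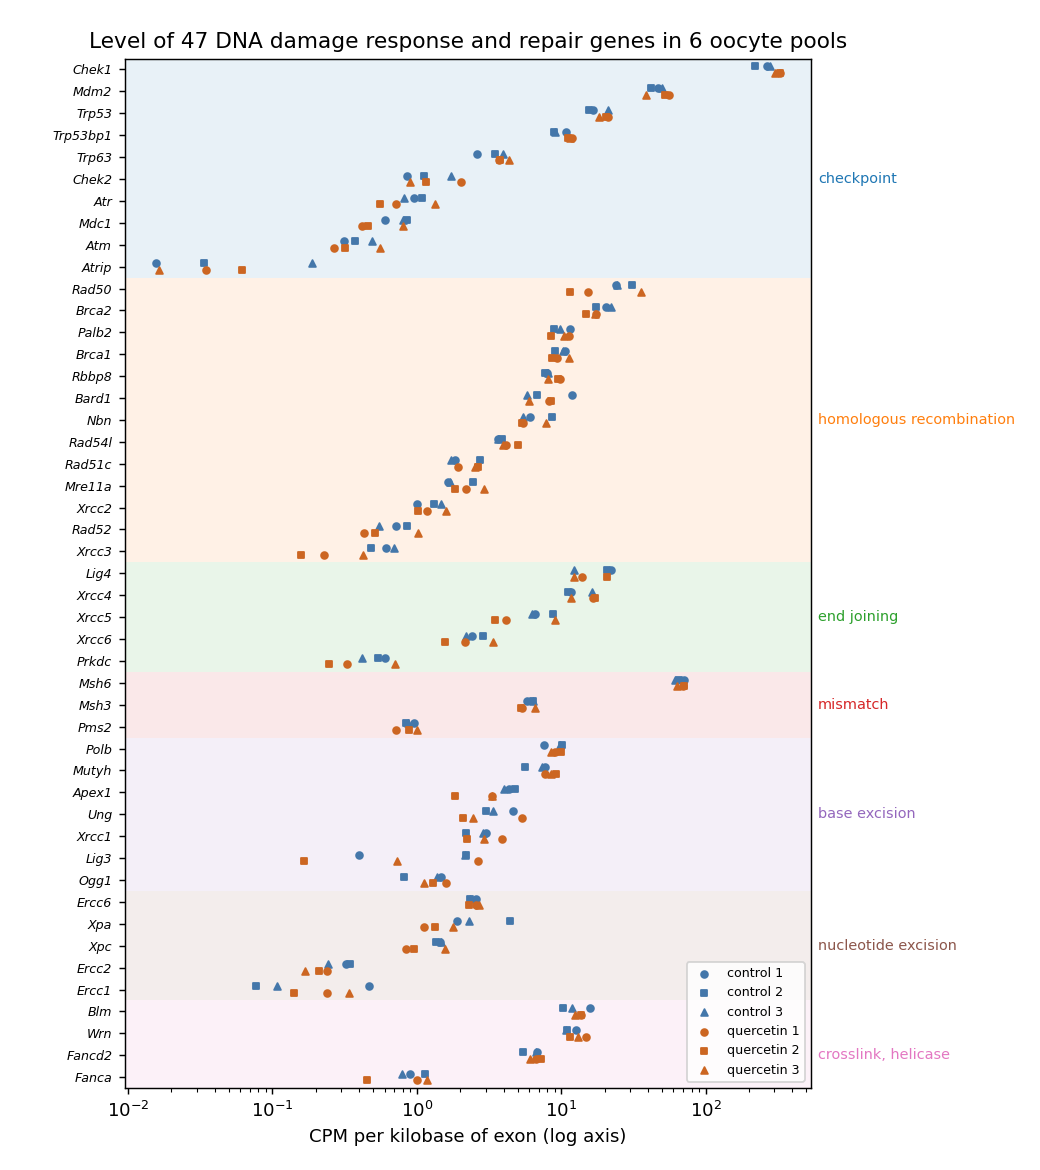
Level of each of the 47 genes in CPM per kilobase of exon (log axis), 1 point per pool, blue for control and orange for quercetin, grouped by role. *Chek1* lies above all other genes in every pool, and control and quercetin points overlap for most genes.

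Within most pathways, the level per kilobase differed widely between members. In the ATM and ATR branches, *Atr* was at 0.912 CPM/kb and its partner *Atrip* at 0.0583, against 287 for their target *Chek1*. For *Atrip*, 1 to 12 reads were counted per pool. In the other branch, *Atm* was at 0.385 and its target *Chek2* at 1.30 CPM/kb. Without division by exon length, *Atr* was at 21.6 CPM, above *Chek2* at 3.90 CPM. Among the end joining genes, *Lig4* and *Xrcc4*, which encode the ligase and its scaffold, were at 17.1 and 14.1 CPM/kb. The Ku subunits that first bind the end, *Xrcc5* (Ku80) and *Xrcc6* (Ku70), were at 6.39 and 2.43, and *Prkdc*, the catalytic subunit of the DNA-dependent kinase, at 0.473 CPM/kb. In nucleotide excision repair *Ercc6*, which starts repair at stalled RNA polymerase, was at 2.48 CPM/kb, while *Ercc1* and *Ercc2*, which encode a nuclease subunit and a TFIIH helicase, were at 0.229 and 0.254.

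No gene of the series passed an adjusted p under 0.05 together with a fold change over 2 in the edgeR quasi-likelihood fit (p-values adjusted by Benjamini-Hochberg), 0 of 11842 (0.0%), and none of the 44 repair genes did. The smallest adjusted p among the repair genes was 0.988 in that edgeR fit, and 0 of them were called by DESeq2, edgeR's likelihood ratio test or limma-voom. At an unadjusted p under 0.05, 253 genes of the series were higher with quercetin (2.14%) and 224 lower (1.89%), a split that became 145 higher and 359 lower when counts were scaled by library size alone. Of the repair genes, 1 was higher at that threshold (*Chek1*) and 2 were lower (*Xrcc3* and *Xpa*), together 6.82% against 4.03% of all genes tested. *Xrcc3* passed the filter on low counts only through the control pools, where it is high, so its p is given as a description. With at least 10 counts required in every pool, which removes it, 1 repair gene was higher (*Chek1*) and 1 lower (*Xpa*) among 43. Over all genes, 238 were then higher and 206 lower among 10146 tested. In the main fit, the log2 fold changes of the 44 repair genes, 20 positive and 24 negative, had a median of -0.02 (quartiles -0.18 and 0.16). The median over all genes was -0.03, and 46.4% of them were positive.

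The size of the changes was bounded for most of the list. In 41 of 44 genes the log2 fold change was under 0.5 in size, and in 2 it was over 1. The 95% interval stayed within 2-fold in both directions for 34 genes. For the other 10 it reached 2-fold, at the lower end in 9 and at the upper end in 2, so a 2-fold difference was not excluded by these pools. At 100 CPM or more, the repair genes had a median within-group SD of 0.14 on the log2 scale (8 genes), against 0.20 for all genes of that level, and under 5 CPM of 0.40 (7 genes), against 0.41.

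**Figure D2:**
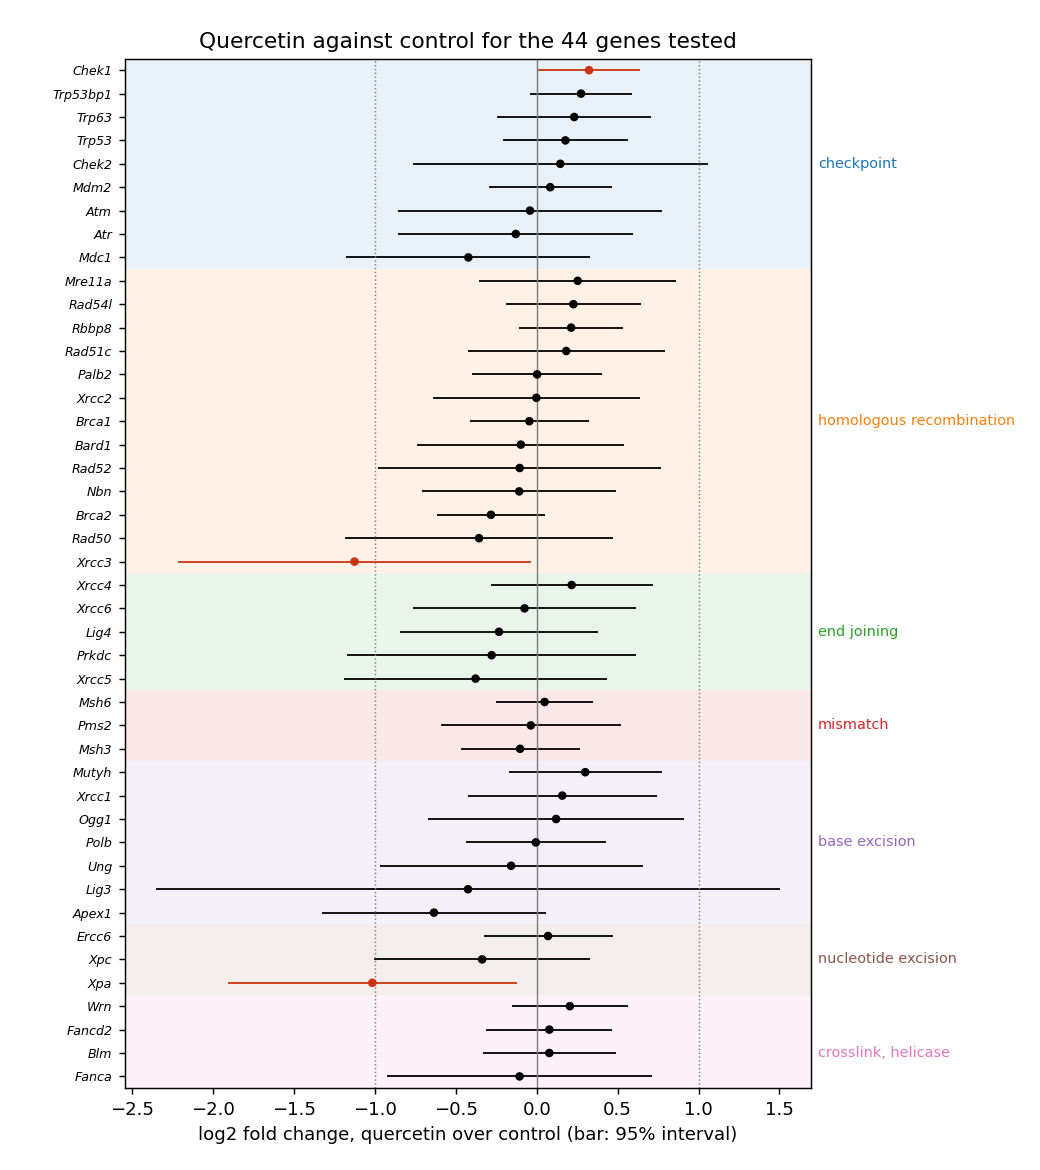
Log2 fold change of quercetin over control with its 95% interval for the 44 genes tested, grouped by role, with dotted lines at 2-fold. Red marks the 3 genes with an unadjusted p under 0.05, *Chek1*, *Xrcc3* and *Xpa*.

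**Figure D3:**
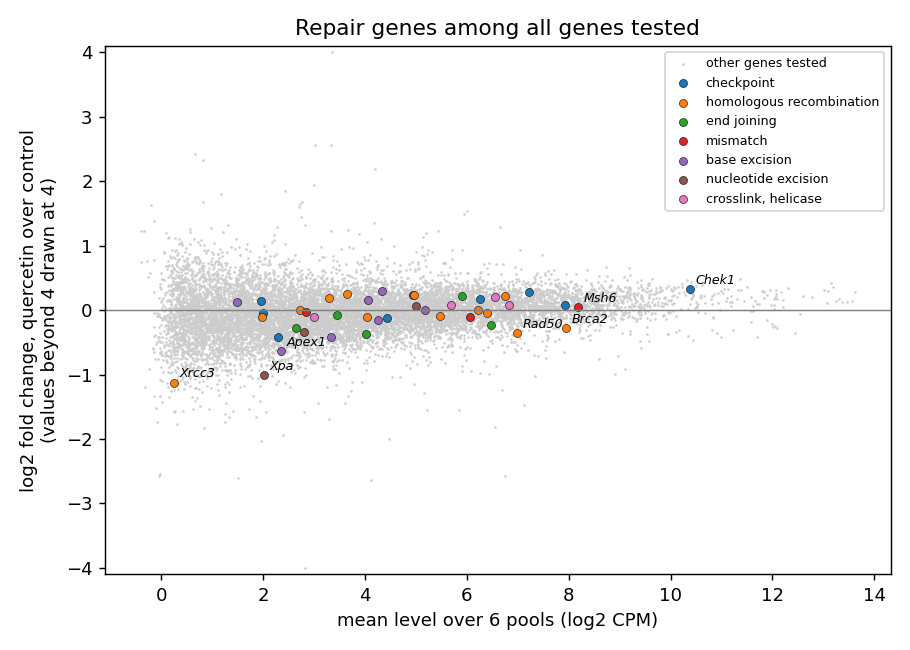
Log2 fold change of quercetin over control against mean level (log2 CPM) for all 11842 genes tested in grey and the 44 repair genes in colour by role. The repair genes spread around 0 like the other genes, with *Xrcc3* and *Xpa* lowest at low level and *Chek1* highest on the level axis.

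Checkpoint genes had the highest median log2 fold change of the 7 groups, at 0.15 over the 9 tested, 6 positive and 3 negative. *Chek1* (chr9:36708482-36727065, minus strand, GRCm38) was at 1226, 1026 and 1293 CPM in the control pools and at 1520, 1514 and 1402 CPM in the quercetin pools. All quercetin pools lay above all control pools, with means of 1182 ± 139 and 1479 ± 66.4 CPM (SD, n = 3). This was a log2 fold change of 0.32 (SE 0.14), a 1.25-fold difference (95% interval 1.00 to 1.56), with an unadjusted p of 0.0463 in edgeR's quasi-likelihood test. The exact permutation test, two-sided, gave p = 0.1, the smallest that 3 pools against 3 allow. Over the alternatives run, its unadjusted p ranged from 0.0276 to 0.184, the latter in edgeR's test without control pool 2, the lowest control.

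*Chek1* alone carried 34.2% ± 2.27 of the counts on the 47 genes in control and 39.4% ± 1.36 in quercetin (SD, n = 3). With it, the summed level of the list was 3452 ± 207 CPM in control and 3750.1 ± 93.7 CPM in quercetin. Without it, the sums were 2270.0 ± 89.9 and 2271 ± 70.6 CPM, a difference far smaller than the spread between pools.

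*Trp53bp1*, whose product binds chromatin beside breaks and favours end joining, was at 153, 126 and 128 CPM in control and 169, 159 and 164 CPM in quercetin. These pools also did not overlap. Its log2 fold change of 0.27 (SE 0.14) had an unadjusted p of 0.0831 in edgeR's test, and 15.0% of its exon length overlaps *Tubgcp4* on the opposite strand, which had 24 to 38 counts per pool against 1052 to 1453 for *Trp53bp1*.

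The pools of the p53 family and its regulator overlapped between the groups. *Trp53* was at 66.9, 62.7 and 84.8 CPM in control and 85.8, 83.2 and 73.5 CPM in quercetin, a log2 fold change of 0.18 (SE 0.17). *Trp63*, whose isoforms the gene counts do not separate, was at 22.0, 29.1 and 33.3 against 31.3, 31.6 and 36.3 CPM, with 0.23 (SE 0.21). In both, a control pool reached into the quercetin range. *Mdm2* was at 239, 212 and 254 against 282, 266 and 198 CPM (log2 fold change 0.08, SE 0.17), quercetin pool 3 being the lowest of all 6 and the other quercetin pools the highest.

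The sensor kinases had wide intervals. *Atr* was at 22.5, 25.9 and 19.2 CPM in control and 17.0, 13.2 and 31.6 CPM in quercetin, and *Atm* at 3.24, 3.83 and 5.05 against 2.75, 3.28 and 5.75 CPM. In both genes quercetin pool 3 was the highest of the 6 pools and another quercetin pool the lowest, and the log2 fold changes were -0.13 (SE 0.32) and -0.04 (SE 0.36). *Chek2*, the kinase activated by ATM, was at 2.57, 3.36 and 5.16 CPM in control and 6.12, 3.50 and 2.70 CPM in quercetin. Its groups overlapped (0.15, SE 0.40). *Mdc1*, a scaffold that binds phosphorylated histone H2AX, had a log2 fold change of -0.42 (SE 0.33).

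**Figure D4:**
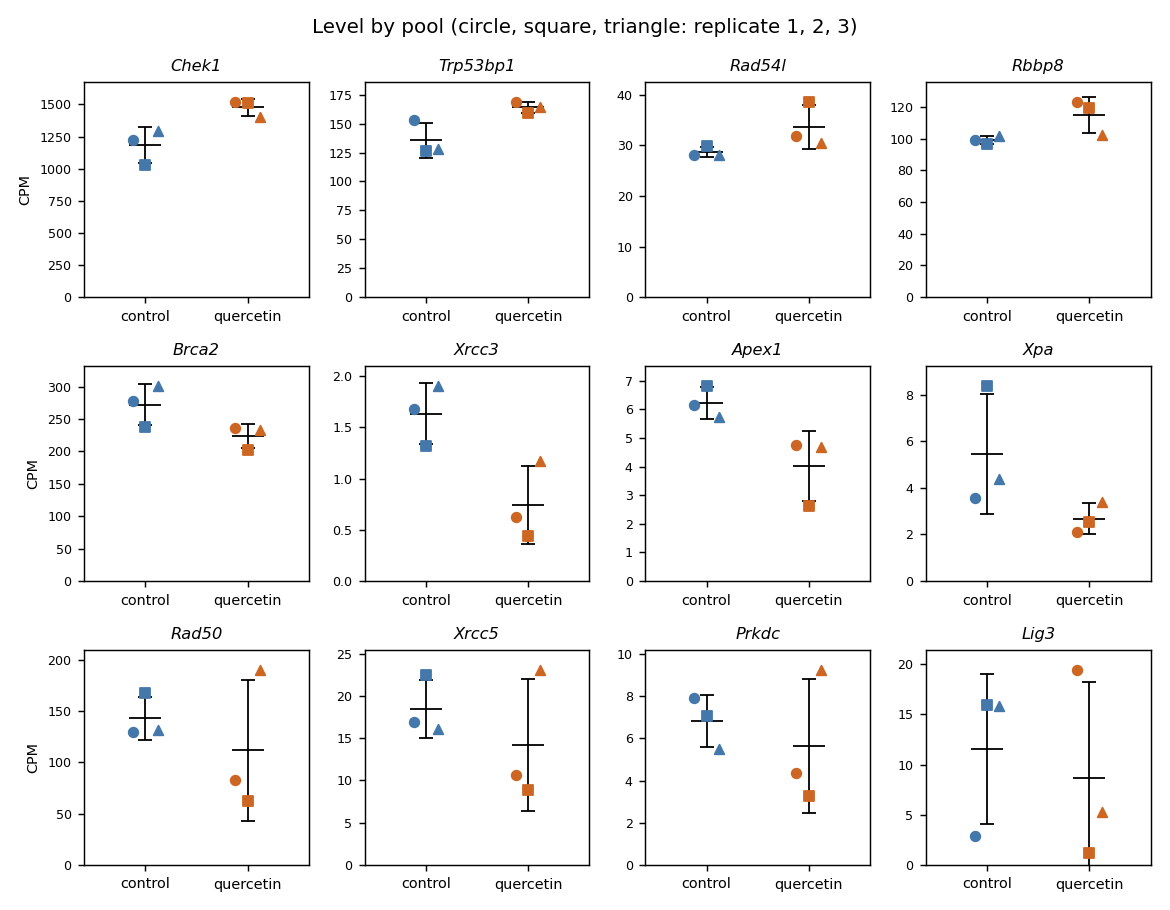
Level in CPM by pool for 12 repair genes, control in blue and quercetin in orange, with the mean and SD of 3 pools as bars (the lower bar of *Lig3* in quercetin is drawn to 0). The top 2 rows hold the 8 tested genes whose groups do not overlap, and the bottom row shows *Rad50*, *Xrcc5* and *Prkdc*, in which quercetin pool 3 exceeds every control pool and the other quercetin pools lie below them all, and *Lig3*, which varied within both groups.

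Over all 44 genes, the pools did not overlap between groups in 8, 4 higher in quercetin (*Chek1*, *Trp53bp1*, *Rad54l* and *Rbbp8*) and 4 lower (*Brca2*, *Xrcc3*, *Apex1* and *Xpa*). This was 18.2% of the repair genes, beside 10.6% of all genes tested, 5.42% higher and 5.17% lower. The exact permutation p was 0.1 for each of the 8, and the count was not tested against the background. It includes *Xrcc3*, which passed the filter on low counts only through the control pools. Among 92 further tested genes of the same pathways and of the p53 response, described below, 6 were higher and 5 lower without overlap.

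Homologous recombination genes, 13 tested, had a median log2 fold change of -0.05, with 5 positive and 8 negative. *Brca2* (chr5:150522630-150570329, plus strand), a central mediator of homologous recombination, was at 277, 238 and 301 CPM in control and 236, 202 and 234 CPM in quercetin. The gap between the lowest control and the highest quercetin pool was under 3 CPM, and the log2 fold change was -0.28 (SE 0.15) with an unadjusted p of 0.0860 in edgeR's quasi-likelihood test. Among the alternatives run it passed 0.05 only where counts were scaled by library size alone (unadjusted p = 0.0341 in edgeR's test), a scaling that placed the median of all genes at -0.11. *Brca1*, its partner in break repair, was at 90.5, 77.9 and 88.3 against 79.3, 73.3 and 96.2 CPM (-0.05, SE 0.16). *Palb2*, which bridges these proteins, and *Bard1*, the obligate partner of BRCA1, were at 0.00 (SE 0.18) and -0.10 (SE 0.28).

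*Xrcc3*, *Rad51c* and *Xrcc2*, which act in the same pathway, had log2 fold changes of different sizes, a difference that was not tested. *Xrcc3* (chr12:111803192-111813873, minus strand) had 15, 11 and 17 counts in control and 5, 4 and 10 in quercetin, or 1.63 ± 0.297 and 0.745 ± 0.383 CPM (SD, n = 3). Each quercetin pool lay below each control pool, but the gap was 10 against 11 counts, and only 1 quercetin pool held as many as 10. The log2 fold change of -1.13 (SE 0.48, 95% interval -2.22 to -0.03) had an unadjusted p of 0.0449 in edgeR's quasi-likelihood test, and the gene was in the lowest 2.14% of tested genes by level. The p was 0.147 by DESeq2, and 0.0632 to 0.150 in edgeR's test without any one of the control pools or without quercetin pool 1 or 2. At 3 counts, the floor used here for counting error, a gene is at 0.302 to 0.381 CPM, so the lowest quercetin pool was close to it. *Rad51c* was at 8.05, 12 and 7.51 against 8.49, 11.6 and 11.1 CPM (0.18, SE 0.27), and *Xrcc2* had a log2 fold change of 0.00 (SE 0.28).

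*Rad54l*, a motor protein that assists strand exchange, was at 28.2, 29.8 and 28.1 CPM in control and 31.8, 38.6 and 30.4 CPM in quercetin. *Rbbp8*, which encodes CtIP, the starter of end resection, was at 99.2, 96.8 and 101 against 123, 120 and 102 CPM. In both genes the control pools were close together and 1 quercetin pool came within 1 CPM of them. The log2 fold changes were 0.23 (SE 0.18) and 0.21 (SE 0.14), with unadjusted p-values of 0.248 and 0.168 in edgeR's test. Of the *Rad54l* exons, 15.4% overlap *Lrrc41* on the opposite strand.

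The MRN complex, which binds and trims broken ends, gave no common direction. *Rad50* was at 129.8, 167 and 132 CPM in control and 82.4, 62.0 and 191 CPM in quercetin. Quercetin pools 1 and 2 lay below all controls and pool 3 above them all, and the log2 fold change was -0.36 (SE 0.36). *Nbn* was at 15.3, 22.1 and 13.7 against 13.7, 13.7 and 19.9 CPM (-0.11, SE 0.26). *Mre11a*, the nuclease, had 0.25 (SE 0.27), and *Rad52*, which anneals single strands, -0.10 (SE 0.39).

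The end joining genes, 5 tested, had a median log2 fold change of -0.23, and none passed an unadjusted p of 0.05. *Xrcc5* was at 16.9, 22.4 and 16 CPM in control and 10.6, 8.86 and 23.1 CPM in quercetin. *Xrcc6* was at 10.7, 12.9 and 9.76 against 9.74, 7.0 and 15.0 CPM, and *Prkdc* at 7.94, 7.07 and 5.50 against 4.37, 3.28 and 9.27 CPM. In all 3 genes, whose products form a single complex on the broken end, quercetin pool 3 was the highest of the 6 pools and quercetin pool 2 the lowest. The same order held in genes outside that complex, such as *Rad50*, *Exo1*, *Brip1* and *Parp1*. How many of all genes show it was not counted. The log2 fold changes of *Xrcc5*, *Xrcc6* and *Prkdc* were -0.38 (SE 0.36), -0.07 (SE 0.31) and -0.28 (SE 0.39). For the later steps, the log2 fold change was -0.23 (SE 0.27) for *Lig4* and 0.22 (SE 0.22) for *Xrcc4*.

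A level in quercetin pool 3 well above the other quercetin pools recurred across the list. Pool 3 exceeded both other quercetin pools by more than 1.5 times in 10 of the 44 genes (*Atm*, *Atr*, *Mdc1*, *Prkdc*, *Rad50*, *Rad52*, *Xpc*, *Xrcc3*, *Xrcc5* and *Xrcc6*), 22.7%, beside 12.4% of all genes tested. Pool 3 was lower by that factor in 0 of the 44 genes, beside 6.11% of all genes. Of the 10, *Xrcc3* in pool 3 was still below every control pool, and *Mdc1* was within the control range. Relative to the mean of the controls, the median over the repair genes was 0.09 and -0.14 on the log2 scale in quercetin pools 1 and 2 and 0.12 in pool 3, with 0.02, -0.04 and -0.02 in the control pools.

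Without quercetin pool 3, and with 2 pools left in that group, 8 of the repair genes were lower at an unadjusted p under 0.05 in edgeR's quasi-likelihood test (18.2%), beside 8.13% of 12258 genes tested then, and 1 was higher (*Chek1*), beside 4.63%. The 8 were *Atr*, *Mdc1*, *Rad50*, *Xrcc3*, *Xrcc5*, *Prkdc*, *Xpa* and *Xpc*. All but *Xpa* are among the genes listed above for a high pool 3, so this count restates that feature and is not separate from it. *Xrcc3* is counted here although it passed the filter on low counts only through the control pools. The log2 fold change of *Rad50* became -0.98, that of *Xrcc5* -0.92, that of *Prkdc* -0.84 and that of *Atr* -0.57. *Mdc1* moved to -0.77, *Xpc* to -0.66, *Xrcc3* to -1.61 and *Xpa* to -1.22. Of the other genes with a high pool 3, *Atm* moved to -0.42, *Rad52* to -0.57 and *Xrcc6* to -0.41, none at an unadjusted p under 0.05. None passed adjustment, the smallest adjusted p being 0.183 for *Rad50* by Benjamini-Hochberg in the same edgeR fit. Leaving out control pool 2 or quercetin pool 2 instead left 0 repair genes at an unadjusted p under 0.05 in edgeR's test. Over all genes, 117 were then higher and 124 lower of 12186 without control pool 2, and 144 and 180 of 12258 without quercetin pool 2. *Lig3* and *Ung* were lower without quercetin pool 1, beside 209 of 12374 genes. *Trp53bp1* was higher and *Xpa* lower without control pool 1, beside 259 and 222 of 12227. *Chek1* was higher and *Xpa* lower without control pool 3, beside 244 and 184 of 12210. What sets quercetin pool 3 apart was not tested.

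**Figure D5:**
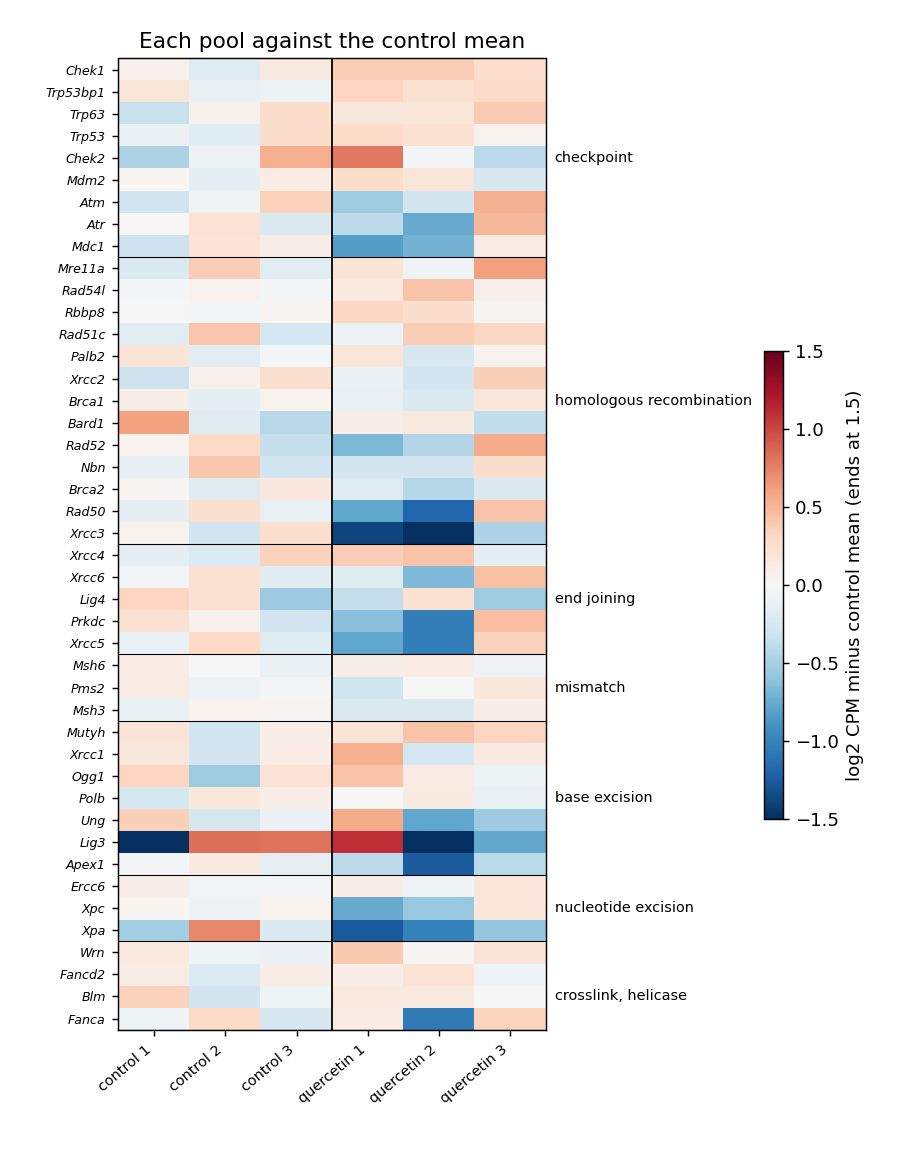
Log2 CPM of the 44 tested genes in each pool minus the mean of the 3 control pools, red above and blue below, with the colour scale ending at 1.5 in both directions. Quercetin pool 2 holds most of the deep blue cells, and in quercetin pool 3 genes such as *Rad50*, *Xrcc5*, *Prkdc* and *Atr* are above the control mean.

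Mismatch repair genes had the smallest median SE of the 7 groups, 0.16 on the log2 scale over 3 genes. *Msh6* was at 311, 285 and 266 CPM in control and 305, 311 and 276 CPM in quercetin, with a log2 fold change of 0.05 (SE 0.13, 95% interval -0.25 to 0.35). *Msh3*, which acts in the repair of longer loops, was at 64.9, 71.9 and 71.7 against 59.9, 59.7 and 74.5 CPM (-0.10, SE 0.16). *Pms2*, the nuclease subunit of the downstream complex, was at 7.24 ± 0.522 and 7.06 ± 1.12 CPM (-0.04, SE 0.25). For *Msh6* and *Msh3* the intervals excluded a change of 1.5-fold in either direction, being 0.84 to 1.28 and 0.72 to 1.20 on the fold scale.

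Base excision repair, the pathway for oxidised, deaminated and alkylated bases, had 7 genes tested with a median of -0.01, 3 positive and 4 negative. *Ogg1*, the glycosylase for 8-oxoguanine, was at 3.24, 1.8 and 3.03 CPM in control and 3.50, 2.84 and 2.46 CPM in quercetin (0.12, SE 0.35). *Mutyh*, which removes the adenine opposite that lesion, was at 18.1 ± 3.03 and 22.2 ± 1.85 CPM (0.30, SE 0.21). *Ung*, the uracil glycosylase, was at 25.3, 16.4 and 18.5 against 29.1, 11.5 and 13.5 CPM (-0.16, SE 0.36). All of these groups overlapped.

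*Apex1* (chr14:50924968-50927139, plus strand), which cuts the strand at sites that have lost a base, was at 6.15, 6.83 and 5.72 CPM in control and 4.75, 2.62 and 4.69 CPM in quercetin. The groups did not overlap, and the log2 fold change was -0.63 (SE 0.31) with an unadjusted p of 0.0682 in edgeR's quasi-likelihood test. This value is uncertain in its assignment, since 61.7% of the annotated *Apex1* exons overlap *Pip4p1* on the opposite strand and the use of strand in counting is not given in the sources used here. *Pip4p1* had 75, 63 and 41 counts in control and 46, 33 and 54 in quercetin, against 55, 57 and 51 and 38, 24 and 40 for *Apex1*.

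The gap-filling and sealing genes followed no common direction. *Polb*, the repair polymerase, was at 36.3 ± 5.41 and 36.1 ± 3.04 CPM (-0.01, SE 0.19), and *Xrcc1*, the scaffold, at 15.7 ± 2.55 and 17.6 ± 4.81 CPM (0.16, SE 0.26). *Lig3*, the ligase that XRCC1 holds, had the largest SE of the 44 genes tested, at 2.91, 15.9 and 15.8 CPM in control and 19.5, 1.20 and 5.28 CPM in quercetin. Both groups held pools that differed by more than 5 times, and the log2 fold change of -0.42 had an SE of 0.85. Of its exons, 25.1% overlap *Rffl*, which was steady at 185 to 229 counts per pool.

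Nucleotide excision repair had the lowest group median, -0.34 over the 3 of 5 genes tested. *Xpa* (chr4:46155347-46196311, minus strand), the damage verifier, was at 3.58, 8.39 and 4.37 CPM in control and 2.12, 2.51 and 3.40 CPM in quercetin, from 32, 70 and 39 against 17, 23 and 29 counts. The groups did not overlap, and the log2 fold change was -1.01 (SE 0.39, 95% interval -1.91 to -0.12) with an unadjusted p of 0.0300 in edgeR's quasi-likelihood test. Control pool 2 set much of this size, and without it the log2 fold change was -0.56 with an unadjusted p of 0.167 in the same test. Without quercetin pool 1 or 2 that edgeR p was 0.0889 or 0.0710.

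*Xpc*, which finds distorted DNA, was at 7.94, 7.43 and 8.07 CPM in control and 4.62, 5.25 and 8.68 CPM in quercetin. Quercetin pool 3 again lay above the controls and the other quercetin pools below them (-0.34, SE 0.30). *Ercc6* was at 32.9, 30.1 and 30.3 against 33.2, 29.7 and 35.0 CPM (0.07, SE 0.18). *Ercc1* had 13, 2 and 3 counts in control and 6, 4 and 9 in quercetin, and *Ercc2* had 12, 12 and 9 against 8, 8 and 6. Both were too low for the test, as was *Atrip*. The *Ercc2* pools did not overlap. Of its exons, 42.7% overlap other genes, which had at most 4 counts in a pool.

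The crosslink repair and helicase genes had a median log2 fold change of 0.08 over 4 genes, 3 positive and 1 negative. *Fancd2*, the ubiquitinated core of the Fanconi pathway, was at 53.9, 43.3 and 53.3 CPM in control and 53.4, 57.3 and 48.1 CPM in quercetin (0.08, SE 0.17). *Blm*, the RecQ helicase that dissolves joint molecules, was at 139, 89.9 and 105 against 120, 121 and 110.1 CPM (0.08, SE 0.18). *Wrn*, the helicase lost in Werner syndrome, had 0.21 (SE 0.16), and *Fanca*, a core complex subunit, -0.11 (SE 0.36). Control and quercetin pools overlapped in all 4.

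A further 111 genes of the same pathways and of the p53 response were measured, of which 92 could be tested. Their median log2 fold change was -0.05, with 42 positive and 50 negative, and 0 passed adjustment in edgeR's test, while 2 were higher and 1 lower at an unadjusted p under 0.05 (3.26%, against 4.03% of all genes). *Neil1*, a glycosylase for oxidised pyrimidines, had 2, 3 and 6 counts in control and 12, 12 and 10 in quercetin (log2 fold change 1.63, SE 0.52), and passed the filter on low counts only through the quercetin pools, where it is high. *Neil2*, a related glycosylase, had 69, 72 and 53 against 40, 24 and 41 counts (-0.84, SE 0.32). *Gtf2h3*, a TFIIH subunit, had 538, 482 and 629 against 798, 727 and 632 counts (0.43, SE 0.18). The groups did not overlap in any of these, and unadjusted p-values were 0.0126, 0.0277 and 0.0378 in edgeR's test.

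Transcripts that the p53 family is known to induce showed no shared direction. Of 18, 10 could be tested, 5 positive and 5 negative, and none passed an unadjusted p of 0.05. The groups did not overlap in 2 of the 10, *Ccng1* (-0.34, SE 0.28) and *Gadd45a* (-0.37, SE 0.30), both lower with quercetin, where the share over all genes tested was 10.6%. They also did not overlap in *Fas*, too low for the test, which was higher with 0, 4 and 1 against 6, 12 and 5 counts. *Cdkn1a*, which encodes the cell cycle inhibitor p21, had 11, 13 and 14 counts in control and 10, 13 and 8 in quercetin. *Bbc3*, which encodes the death factor PUMA, had 1 count in all 6 pools together, and *Pmaip1*, which encodes NOXA, had 8, 2 and 2 against 17, 9 and 3 counts. *Trp53inp1* had the smallest p of the 10, at 191 ± 33.1 and 244 ± 38.2 CPM (SD, n = 3), with an unadjusted p of 0.0745 in edgeR's quasi-likelihood test.

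Stored oocyte messages are known to be lengthened at their poly(A) tails during maturation through U-rich elements near the 3′ end, and the cDNA was primed from those tails. The last 150 bases of the annotated transcript were therefore searched, on the mRNA strand only, for TTTTAT or TTTTAAT. A match was present in 7 of the 44 tested repair genes (15.9%), *Trp53*, *Brca2*, *Bard1*, *Rad54l*, *Ogg1*, *Xpc* and *Wrn*, beside 27.3% of 9751 tested genes with a 3′ end to search. The median log2 fold change was 0.12 with a match and -0.04 without among the repair genes, and 0.02 and -0.04 among all genes. The 7 values ran from -0.34 (*Xpc*) to 0.23 (*Rad54l*). Genes with a match were also more abundant, at a median of 5.479 against 4.251 log2 CPM among the repair genes and 4.579 against 3.515 among all genes. Matches are shown for 4 genes whose values are described above, with the match in capitals, from the GENCODE M21 transcripts on GRCm38.
*Trp53*, chr11:69591814-69591843, plus strand: ttttttacccctTTTTATatatcaatttcc
*Brca2*, chr5:150569697-150569726, plus strand: ctacaactatcaTTTTATatacaaaataaa
*Rad54l*, chr4:116097006-116097035, minus strand: gcccaaaatttaTTTTATaagaaaaacttt
*Xpc*, chr6:91489327-91489356, minus strand: aggaaagagttcTTTTATaggacctccagg
Each stretch lies in the 3′ untranslated region and runs 5′ to 3′ along the mRNA. The annotated *Rad54l* end holds no AATAAA or ATTAAA, the poly(A) signal words searched for, in its last 50 bases, while the other ends shown do. The matching letters are a description of these annotated ends, and which 3′ end the oocytes used was not measured.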

How the data were processed

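The authors deposited raw counts of reads for 53465 Ensembl genes in 6 pools, made from Smart-seq HT libraries, whose cDNA is primed from poly(A) tails, so that tail length as well as abundance can affect a count. The study's methods name Hisat2 and GRCm38.91, while the submitters' processing notes list CASAVA 1.8 and TopHat2 2.0.6 with the builds mm10 and GRCm38. The counting program and its handling of strand and of reads that match several genes are not given in the sources used here.

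Groups and replicate numbers came from the sample labels. Symbols (53274 identifiers matched), exon lengths and coordinates came from GENCODE M21 on GRCm38. The 47 genes and all lists were chosen with earlier results of these data known. filterByExpr (minimum count 10) kept 11842 of the 24476 genes that had any count. Quercetin was compared with control in all 6 pools by the quasi-likelihood F test of edgeR 4.0.16 under R 4.3.3, with TMM scaling and without covariates. P-values were adjusted by Benjamini-Hochberg across the tested genes, and genes were called at an adjusted p under 0.05 with a fold change over 2, the study's criteria. The study reported both up-regulated and down-regulated genes at these criteria and does not name its test. Why the fit used here called none was not tested. Levels are in CPM on TMM-scaled library sizes, as mean ± SD of 3 pools. The floor of 3 counts uses unscaled library sizes and covers counting error only. The exact permutation test on log2(CPM + 0.5) of 3 pools against 3 cannot go under p = 0.1. The fit was tested on simulated counts.

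Values in every pool are given for repair genes with an unadjusted p under 0.05 or without overlap between groups, for 25 genes central to their role, and for the 2 highest per kilobase. Other pathway genes are named where their unadjusted p was under 0.05. *Cdkn1a*, *Bbc3*, *Pmaip1* and *Trp53inp1* were chosen after their values were seen, as were *Lig3* for its values by pool and *Ccng1*, *Gadd45a* and *Fas* for their lack of overlap. The alternatives tried were limma-voom (limma 3.58.1), DESeq2 1.42.0, the likelihood ratio test of edgeR, DESeq2's size factors, library size only, genes with at least 1 count, at least 10 counts in every pool, the replicate number as a block, and leaving out each pool. Sequence searches and plots used Python 3.11.15 with numpy 2.4.6, pandas 2.3.3 and matplotlib 3.10.9.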

Additional observations from a re-analysis of the deposited data

How the results depend on the processing

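At an adjusted p under 0.05 with a fold change over 2, 0 repair genes were called under every alternative run, and over all genes 11 were called by DESeq2 (6 higher, 5 lower), 16 by edgeR's likelihood ratio test (6 higher, 10 lower), 3 with genes of at least 1 count (2 higher, 1 lower) and 0 to 7 without 1 pool (0 to 4 higher, 0 to 6 lower). Genes at an unadjusted p under 0.05 numbered 145 higher and 359 lower with library size only, 302 higher and 193 lower with DESeq2's size factors, 374 higher and 406 lower with at least 1 count, and 117 to 567 higher and 124 to 996 lower without 1 pool. Repair genes higher at that p were 0 by DESeq2, the likelihood ratio test, library size only and the replicate block, and 0 to 1 without 1 pool. Those lower were 1 by DESeq2, 1 with at least 10 counts in every pool, 3 with library size only, and 0 to 8 without 1 pool. Over all genes, DESeq2 gave 251 higher and 179 lower of 24462 at that p. With at least 10 counts in every pool it was 238 higher and 206 lower of 10146. The likelihood ratio test gave 190 higher and 229 lower of 11842, the number also tested with library size only and the replicate block. Leaving out 1 pool, 12186 to 12374 genes were tested. Without overlap, 2 repair genes were higher with library size only, and 5 to 8 higher and 4 to 14 lower without 1 pool. With fewer pools, groups fail to overlap more easily, and the share over all genes was not computed under these settings. These counts therefore cannot be set against those from all pools or read as a result on the repair genes.

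Same-numbered pools were not shown to be pairs, with correlations of their deviations of 0.305, 0.0923 and -0.0313. The replicate block gave 222 genes higher and 270 lower at an unadjusted p under 0.05, and a median of -0.03 for the repair genes. Their median was 0.00 with DESeq2's size factors, -0.10 with library size only and -0.02 to 0.08 without 1 pool.

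Some log2 fold changes near 0 changed sign. *Xrcc2* was at 0.022 by DESeq2 and with its size factors and at 0.0078 with at least 1 count. *Polb* was at 0.020 by DESeq2 and with its size factors, 0.0051 by limma-voom, 0.0047 with at least 1 count and 0.0018 with the replicate block. *Palb2* was at -0.0027 by limma-voom, -0.076 with library size only and -0.0036 with at least 10 counts in every pool. With library size only, *Mdm2* was at -0.009, *Msh6* at -0.040, *Ercc6* at -0.0087, *Fancd2* at -0.0085 and *Blm* at -0.0073. Without 1 pool, 21 genes had ranges that crossed 0, from -0.42 to 0.16 for *Atm*, -0.57 to 0.11 for *Atr*, -0.25 to 0.47 for *Chek2*, -0.015 to 0.23 for *Mdm2*, -0.16 to 0.038 for *Brca1*, -0.28 to 0.27 for *Bard1* and -0.092 to 0.11 for *Palb2*. They ran from -0.57 to 0.12 for *Rad52*, -0.31 to 0.12 for *Nbn*, -0.20 to 0.13 for *Xrcc2*, -0.41 to 0.15 for *Xrcc6*, -0.84 to 2e-04 for *Prkdc*, -0.14 to 0.080 for *Pms2* and -0.096 to 0.28 for *Ogg1*. The others were -0.063 to 0.34 for *Xrcc1*, -1.84 to 0.10 for *Lig3*, -0.12 to 0.075 for *Polb*, -0.68 to 0.086 for *Ung*, -0.016 to 0.14 for *Fancd2*, -0.38 to 0.21 for *Fanca* and -0.051 to 0.27 for *Blm*. Where a count or sign changed, the cause was not tested. With 2 pools left in a group, its spread is taken as like that of the other group.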

Other observations

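Beyond the 47 genes, chosen after their values were seen, *Uvssa*, which stabilises ERCC6 at stalled RNA polymerase, had 624, 384 and 460 counts in the control pools and 15, 11 and 459 in quercetin pools 1, 2 and 3. Quercetin pool 3 was thus within the control range and the other quercetin pools far below it, and the log2 fold change was -1.56 (SE 1.08). *Neil3*, a glycosylase of the same family as *Neil1* and *Neil2*, was far more abundant than either, at 170 CPM/kb over the 6 pools against 0.467 and 1.15 CPM/kb, with a log2 fold change of 0.19 (SE 0.14). *Mdm4*, the p53 inhibitor that partners *Mdm2*, was at 110 CPM/kb, against 47.6 CPM/kb for *Mdm2*, with a log2 fold change of 0.10 (SE 0.13).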
